A study of Mus musculus with 30 samples.

Results

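A set of 10 genes that mark T lymphocytes and natural killer (NK) cells was followed through fracture healing in mice lacking Apex1 in the limb mesenchyme: Cd3d, Cd3e, Cd3g, Cd4, Cd8a, Lck, Foxp3, Ncr1, Nkg7 and Gzma. The genes were listed by name as markers of these cells, with earlier results of these data known, and all 10 were found among the 55416 gene identifiers of the count table. The 30 libraries are total RNA of the callus of a closed, non-stabilized fracture of the left tibia, from young adult mice, at 3, 6, 10 and 14 days post-fracture (dpf). The paper describes the tissue as tibia cut out around the fracture at 3-dpf and as whole callus at 6-dpf. The 13 knockout libraries (P-Apex1KO) come from Prrx1-Cre;Apex1 C/C mice, in which Cre is active in limb mesenchyme, a lineage that does not give rise to lymphocytes. The 17 wild-type (WT) libraries come from littermates that were Prrx1-Cre;Apex1 C/+, Apex1 C/C or Apex1 C/+, so part of the WT mice carried Cre with 1 floxed allele and none had a deletion of both. WT and P-Apex1KO groups held 4 and 4 libraries at 3-dpf, 5 and 3 at 6-dpf, 4 and 3 at 10-dpf, and 4 and 3 at 14-dpf. All 3 P-Apex1KO mice at 14-dpf were female, against 1 of the 4 WT mice (replicate 1), so at that time the sex-adjusted difference rests on a single WT female.

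T cells read antigen through a receptor whose variable chains sit in a complex with the invariant CD3 delta, epsilon and gamma chains, encoded by Cd3d, Cd3e and Cd3g, and with the zeta chain. The kinase Lck, carried by the coreceptors CD4 and CD8, starts the signal by phosphorylating the CD3 and zeta chains. Foxp3 is the transcription factor of regulatory T cells, Ncr1 encodes the activating receptor NKp46 of NK cells and related innate lymphocytes, and Nkg7 and Gzma encode a granule membrane protein and a granule protease of cytotoxic cells. In a fracture, lymphocytes enter the haematoma and the later callus among far more numerous myeloid cells, and the opened marrow cavity holds lymphocytes of its own. Mouse CD4 is also carried by some dendritic cells and macrophages, and CD8 by some dendritic cells, so neither Cd4 nor Cd8a is specific to T cells.

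The starts of the 3 CD3 chain genes and of the 2 members with the largest genotype differences at 6-dpf, Ncr1 and Gzma, are printed here, as the stretch of 250 bases immediately before the start of the canonical transcript (GRCm39, the build of the counts, from GENCODE M39 positions). Cd3g, Cd3d and Cd3e lie side by side on chromosome 9, from 44880870 to 44920925, and Cd3g and Cd3d are transcribed away from each other from starts 1348 bases apart. Capitals mark every match, on either strand, to 4 motifs of 6 letters: AGGAAG (ETS family), TGTGGT (RUNX family), AGGTGT (T-box family) and CAGGTG (E-box).
Cd3d, chr9:44892833-44893082, plus strand: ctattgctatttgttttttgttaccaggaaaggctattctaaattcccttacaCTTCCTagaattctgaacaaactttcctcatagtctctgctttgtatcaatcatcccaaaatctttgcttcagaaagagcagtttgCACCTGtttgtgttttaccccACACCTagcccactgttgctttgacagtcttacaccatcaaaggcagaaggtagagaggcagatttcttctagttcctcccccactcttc
Cd3e, chr9:44920912-44921161, minus strand: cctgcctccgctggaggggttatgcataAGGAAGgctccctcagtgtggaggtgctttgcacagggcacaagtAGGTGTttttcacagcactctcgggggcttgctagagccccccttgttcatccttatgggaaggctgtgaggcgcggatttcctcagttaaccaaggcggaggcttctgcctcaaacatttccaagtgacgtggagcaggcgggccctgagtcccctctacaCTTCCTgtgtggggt
Cd3g, chr9:44891736-44891985, minus strand: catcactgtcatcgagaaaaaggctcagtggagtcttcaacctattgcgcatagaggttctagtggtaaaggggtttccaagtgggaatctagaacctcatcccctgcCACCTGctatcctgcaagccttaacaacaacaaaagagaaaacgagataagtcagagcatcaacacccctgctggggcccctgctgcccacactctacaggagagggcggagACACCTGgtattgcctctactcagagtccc
Ncr1, chr7:4340460-4340709, plus strand: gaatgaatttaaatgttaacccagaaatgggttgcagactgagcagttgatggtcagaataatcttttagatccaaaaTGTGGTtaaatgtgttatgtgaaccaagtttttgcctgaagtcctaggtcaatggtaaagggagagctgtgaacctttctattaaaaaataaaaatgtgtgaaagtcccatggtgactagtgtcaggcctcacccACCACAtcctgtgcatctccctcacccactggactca
Gzma, chr13:113237525-113237774, minus strand: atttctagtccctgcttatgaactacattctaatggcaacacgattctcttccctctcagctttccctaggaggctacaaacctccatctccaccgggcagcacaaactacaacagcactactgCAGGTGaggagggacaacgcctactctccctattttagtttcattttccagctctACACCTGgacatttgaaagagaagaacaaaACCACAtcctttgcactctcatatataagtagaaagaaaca
The T-box letters were found before Cd3d, Cd3e, Cd3g and Gzma, thus 4 of the 10 members, against 12.3% of the windows of 21627 protein-coding genes. The RUNX letters were found before Lck, Ncr1, Nkg7 and Gzma, also 4 of 10, against 13.1% of all windows. The ETS letters were found in 3 of 10 members (Cd3d, Cd3e, Lck; 28.9% of all windows) and the E-box letters in 3 of 10 (Cd3d, Cd3g, Gzma; 17.6%). In both Cd3g and Gzma the T-box match overlaps an E-box match. These are matches of letters and were not tested as binding sites.

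Read counts on genes ranged from 18334389 to 43111491 per library, and the 10 members together received 399 to 2753 of them. Foxp3 was the thinnest, with 1 to 35 counts in a library, and Cd3g and Cd3d had as few as 5 and 8. The level of Apex1 itself was 24.2 ± 3.47 CPM (counts scaled by TMM to a common library size) in WT and 15.4 ± 0.41 in P-Apex1KO callus at 6-dpf (mean ± SD, n = 5 and 3; adjusted p = 0.0071 in edgeR's quasi-likelihood test), and was also called lower at 10-dpf. At 3-dpf (log2 fold change -0.15 ± 0.19 SE, adjusted p = 0.927) and at 14-dpf (-0.29 ± 0.19, adjusted p = 0.367) it was not called. P-Apex1KO replicate 1 at 3-dpf stood apart, with the lowest summed level of the members (20.4 CPM) and of the granulocyte precursor markers (504 CPM) in its group. All levels are CPM after TMM scaling over the 30 libraries, and differences are log2 fold changes of P-Apex1KO over WT with sex as a covariate, called at an adjusted p under 0.05 over all genes tested.

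Per kilobase of annotated exon, Nkg7 was the most abundant member, with a median of 12.0 CPM per kb over 30 libraries (range 3.12 to 23.0). It was followed by Cd4 (3.47), Gzma (1.91), Lck (1.56) and Ncr1 (1.56), then by Cd3e (0.512), Cd3d (0.447), Cd8a (0.440), Cd3g (0.261) and Foxp3 (0.0697). Nkg7 exceeded Cd4 in 30 of 30 libraries, and Ncr1 exceeded Cd3e in 30 of 30. Neighbours inside these steps were not separated: Lck exceeded Ncr1 in 14 of 30 libraries, Cd3e exceeded Cd3d in 18 and Cd3d exceeded Cd8a in 16. Exon lengths are the union over all annotated transcripts, which weighs on this order.

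**Figure D1:**
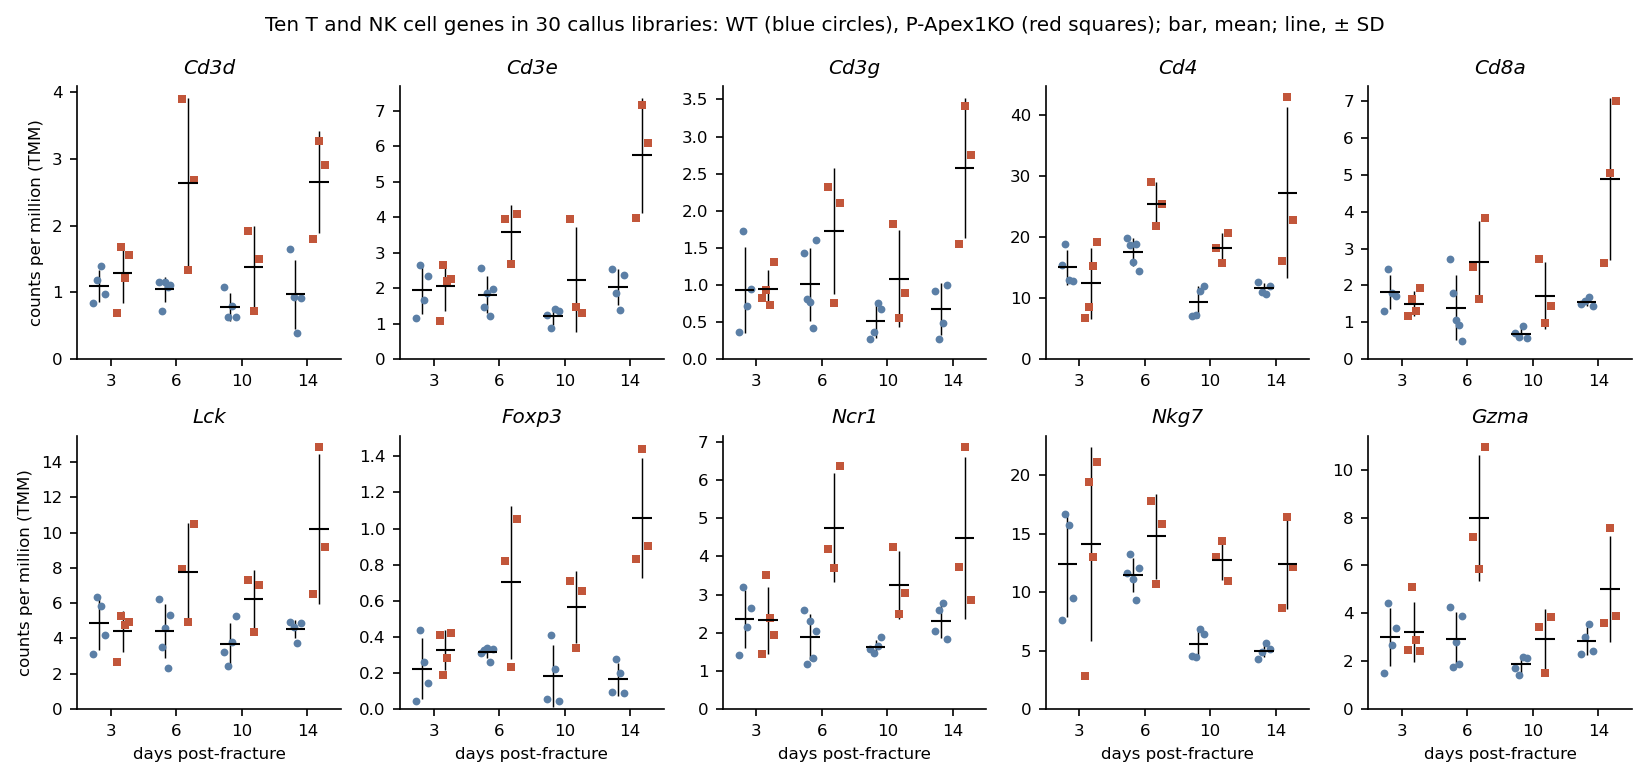
Level of each member in CPM (y axis, from 0) in every library at 3, 6, 10 and 14 days post-fracture (x axis). Blue circles are WT and red squares P-Apex1KO libraries, with the mean as a bar and ± 1 SD as a line. The groups overlap in all 10 members at 3-dpf and are apart in all 10 at 14-dpf.

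At 3-dpf no member differed between genotypes. None of the 10 was called by edgeR, none had an unadjusted p under 0.05, and DESeq2 called 0 as well, beside 0% of the 19866 genes tested at this time. The median log2 fold change of the members was 0.15, against -0.0028 over all genes, with 8 above and 2 below 0. Summed over the members, WT libraries held 32.9, 58.1, 45.3 and 38.8 CPM and P-Apex1KO libraries 20.4, 48.9, 44.2 and 57.2 CPM. The groups overlapped in every member, with SE between 0.26 and 0.66 on the log2 scale, which limits the differences that could be detected.

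At 6-dpf, by contrast, 6 of the 10 members were called higher in P-Apex1KO callus: Cd3d, Cd3e, Cd4, Lck, Ncr1 and Gzma. The background was 5.31% of 20260 genes called higher. The median difference of the members was 1.12 on the log2 scale, against 0.013 over all genes, and all 10 were above 0. In 5 members (Cd3d, Cd3e, Cd4, Ncr1, Gzma) every P-Apex1KO library exceeded every WT library, as was so for 8.71% of all genes. P-Apex1KO replicate 3 exceeded every WT library in 10 members, replicate 1 in 9 and replicate 2 in 5. The count of 6 depended on single libraries: it was 0 without WT replicate 2, 1 without WT replicate 4 and 2 without P-Apex1KO replicate 1. WT replicates 2 and 4 were the only WT males and P-Apex1KO replicate 1 the only P-Apex1KO female. These fits thus also changed the balance of sex, and the 2 cannot be told apart.

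At 10-dpf 3 members were called higher, Cd4, Ncr1 and Nkg7, beside 3.01% of 18910 genes. All 10 differences were again above 0, with a median of 0.97 against -0.0031 over all genes. Foxp3, with 1 to 9 counts in WT libraries, passed the filter on low counts at this time through P-Apex1KO libraries only. P-Apex1KO and WT libraries did not overlap in 4 members (the 3 called and Cd8a), as in 8.78% of all genes. No member was called without WT replicate 1, without P-Apex1KO replicate 1, or when all 30 libraries shared 1 model, and 1 was called without WT replicate 2 or P-Apex1KO replicate 3. WT replicates 1 and 2 were the only WT females and P-Apex1KO replicate 1 the only P-Apex1KO female. Leaving these out thus also changed the balance of sex.

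At 14-dpf all 10 members were higher in every P-Apex1KO library than in every WT library, as were 18.5% of all genes. With sex in the model 2 of them were called, Foxp3 and Nkg7, beside 4.28% of 20228 genes. Foxp3 had 2 to 6 counts in WT and 19 to 30 in P-Apex1KO libraries. It passed the filter on low counts through the P-Apex1KO libraries only, so its place among the tested genes was not independent of genotype. Without the sex term all 10 were called, both by edgeR and by DESeq2. For this and the other refits the share of all genes called is not given, so these counts have no background beside them. The median difference with sex was 1.18, against 0.043 over all genes. Without WT replicate 2, 3 or 4, or P-Apex1KO replicate 3, no member was called. Without the WT female (a fit that can hold no sex term) 8 were called, and 5 without P-Apex1KO replicate 1. Genotype and sex cannot be told apart among the other 6 libraries of this time.

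**Figure D2:**
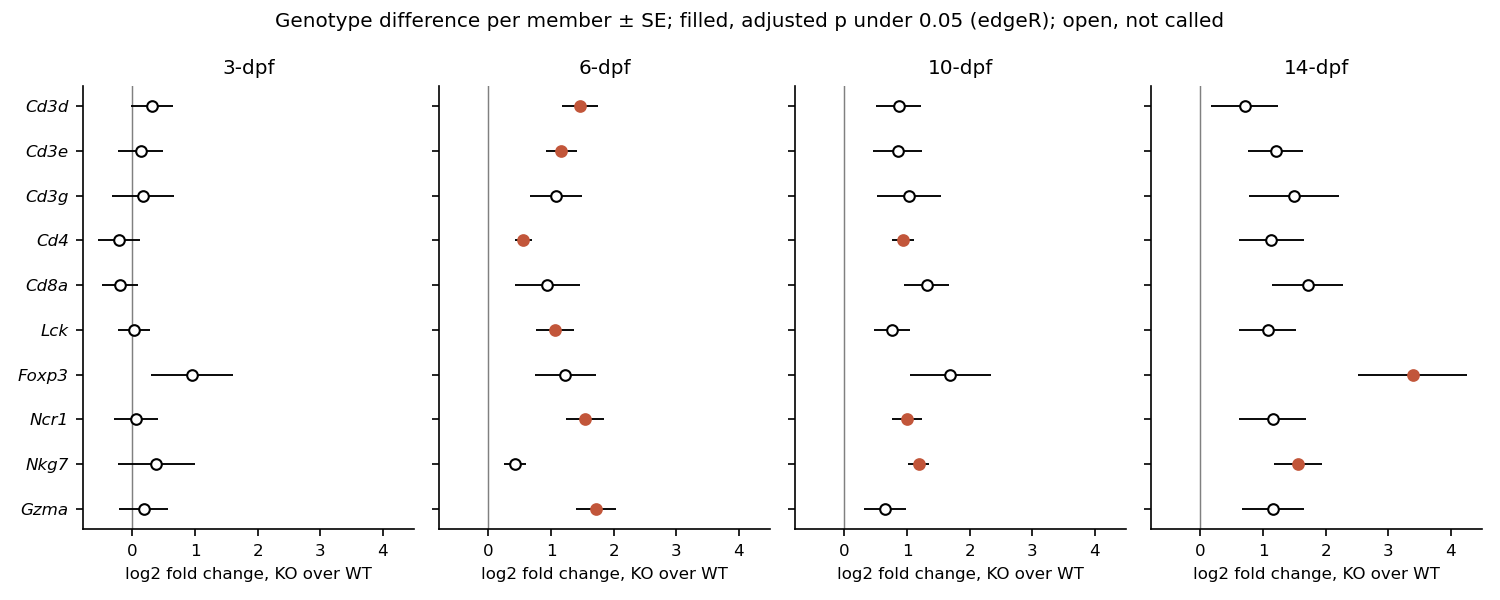
Log2 fold change of P-Apex1KO over WT (x axis) for each member (y axis), 1 panel per time point. Points carry ± 1 SE, and filled points have an adjusted p under 0.05: 0 at 3-dpf, 6 at 6-dpf, 3 at 10-dpf and 2 at 14-dpf.

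Among the CD3 chains, Cd3e and Cd3d were called higher in P-Apex1KO than in WT callus at 6-dpf. The level of Cd3e was 2.56, 1.46, 1.86, 1.22 and 1.97 CPM in the 5 WT libraries and 3.96, 2.68 and 4.09 CPM in the 3 P-Apex1KO libraries. The lowest P-Apex1KO library lay just above the highest WT library, and the difference was 1.16 ± 0.24 on the log2 scale (2.24-fold, adjusted p = 0.0177, edgeR). Cd3e was called in 13 of 17 other settings at this time. At 10-dpf its levels overlapped, with 1 P-Apex1KO library at 3.94 CPM and the other two at 1.48 and 1.31 CPM, against 0.868 to 1.42 CPM in WT. The difference there was 0.85 ± 0.39 (adjusted p = 0.227) and 0.0067 without the highest P-Apex1KO library, replicate 1. At 14-dpf Cd3e stood at 2.53, 1.86, 1.39 and 2.36 CPM in WT and 3.97, 7.16 and 6.08 CPM in P-Apex1KO callus, the first WT value being that of the female. The groups did not overlap, and the sex-adjusted difference of 1.21 ± 0.44 was not called (adjusted p = 0.122).

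Cd3d encodes the delta chain. At 6-dpf WT libraries held 1.16, 0.715, 1.16, 1.08 and 1.12 CPM, and P-Apex1KO libraries 3.89, 1.34 and 2.68 CPM. All P-Apex1KO values were above all WT values, with replicate 2 nearest to them, and the difference was 1.46 ± 0.29 (2.76-fold, adjusted p = 0.0142). At 14-dpf the WT female held 1.65 CPM, close to the lowest P-Apex1KO library at 1.80 CPM, while the 3 WT males held 0.928, 0.396 and 0.918 CPM. The sex-adjusted difference was 0.71 ± 0.53 (adjusted p = 0.430). Without the WT female, in a fit without sex where genotype and sex cannot be told apart, it was 1.85 (adjusted p = 0.0103).

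Cd3g, the gamma chain, was not called at any of the 4 time points. At 6-dpf it ranged from 0.427 to 1.60 CPM in WT and took 2.32, 0.757 and 2.10 CPM in P-Apex1KO libraries, so that replicate 2 fell within the WT range. The difference was 1.08 ± 0.41 (adjusted p = 0.130). At 14-dpf it was 0.676 ± 0.347 CPM in WT (SD, n = 4) and 2.57 ± 0.944 CPM in P-Apex1KO callus (n = 3), with 6 to 71 counts behind each value. The sex-adjusted difference was 1.49 ± 0.71 (adjusted p = 0.219). Without the WT female it was 2.13 (adjusted p = 0.0148), in a fit without sex where genotype and sex cannot be told apart.

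Lck, the kinase next to the receptor, overlapped between genotypes at 6-dpf although it was called. WT libraries held 6.25, 3.51, 4.59, 2.33 and 5.32 CPM and P-Apex1KO libraries 7.92, 4.95 and 10.5 CPM. Replicate 2 of P-Apex1KO lay within the WT range, and the adjusted p of 0.0497 sat at the threshold (log2 difference 1.07 ± 0.30). Lck was called in 7 of 17 other settings at this time. At 14-dpf the 4 WT libraries lay between 3.76 and 4.91 CPM and the P-Apex1KO libraries at 6.53, 14.9 and 9.17 CPM (1.08 ± 0.46, adjusted p = 0.175).

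Of the coreceptors, Cd4 was called higher in P-Apex1KO than in WT callus at 6- and 10-dpf. Its levels at 6-dpf were 20.0, 18.7, 15.9, 19.0 and 14.6 CPM in WT and 29.2, 21.9 and 25.4 CPM in P-Apex1KO libraries. The groups were apart, and the difference was 0.56 ± 0.14 (1.47-fold, adjusted p = 0.0325). At 10-dpf WT libraries held 7.12, 7.26, 11.3 and 12.0 CPM and P-Apex1KO libraries 18.2, 15.8 and 20.7 CPM, again with no overlap. The difference was 0.94 ± 0.17 (1.91-fold, adjusted p = 0.0211). At 14-dpf P-Apex1KO libraries held 16.2, 43.0 and 22.8 CPM, against 10.7 to 12.7 CPM in WT, and Cd4 was not called (1.13 ± 0.52, adjusted p = 0.212). Of all 30 libraries, P-Apex1KO replicate 2 at 14-dpf had the highest Cd4 level.

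Cd8a, the coreceptor of cytotoxic T cells, was also not called at any time point. At 6-dpf WT libraries spread widely, from 0.484 to 2.72 CPM, and P-Apex1KO libraries held 2.49, 1.63 and 3.82 CPM (0.94 ± 0.52, adjusted p = 0.300). At 10-dpf the WT libraries lay close together at 0.701, 0.594, 0.889 and 0.583 CPM, and the P-Apex1KO libraries at 2.73, 0.971 and 1.45 CPM. The groups did not overlap there, and the difference of 1.31 ± 0.37 missed the threshold (adjusted p = 0.0693) and was 0.70 without P-Apex1KO replicate 1. At 14-dpf the WT libraries were again narrow (1.44 to 1.68 CPM) and below all P-Apex1KO libraries (2.60, 5.05 and 6.99 CPM), with a difference of 1.71 ± 0.57 (adjusted p = 0.0946).

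Foxp3, the factor of regulatory T cells, was called at 14-dpf alone. At that time it passed the filter on low counts through the P-Apex1KO libraries only. Its place among the tested genes was thus not independent of genotype. WT libraries held 0.0973, 0.278, 0.198 and 0.0874 CPM there and P-Apex1KO libraries 0.830, 1.44 and 0.903 CPM. Behind these levels stood 14 counts in all WT libraries together and 72 in P-Apex1KO callus, a ratio of levels of 6.30 (exact 95% interval 3.52 to 12.1, for counting error only). The sex-adjusted difference was 3.39 ± 0.87 (adjusted p = 0.0446), but it rests on 2 counts in the WT female, against which the ratio was 10.6 with an interval from 2.84 to 89.6. Without that library the difference was 2.51 (adjusted p = 0.0067), in a fit without sex where genotype and sex cannot be told apart. At 6-dpf the 5 WT libraries lay between 0.263 and 0.338 CPM and the P-Apex1KO libraries at 0.820, 0.233 and 1.05 CPM, thus on both sides of WT (1.23 ± 0.49, adjusted p = 0.141). The annotation places the non-coding gene Flicr on the same strand within Foxp3, and how shared reads were assigned is not given in the sources used here.

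Ncr1, the NK cell receptor, was called higher in P-Apex1KO than in WT callus at both 6- and 10-dpf. At 6-dpf WT libraries held 2.59, 1.17, 2.30, 1.35 and 2.05 CPM and P-Apex1KO libraries 4.20, 3.70 and 6.37 CPM. All P-Apex1KO libraries were above all WT libraries, and the difference was 1.54 ± 0.30 (2.90-fold, adjusted p = 0.0131). At 10-dpf the WT libraries were narrow, at 1.56, 1.46, 1.65 and 1.88 CPM, and below the P-Apex1KO libraries at 4.24, 2.49 and 3.04 CPM (1.00 ± 0.24, adjusted p = 0.0441). At 14-dpf the lowest P-Apex1KO library, 2.85 CPM, lay just above the highest WT library, 2.77 CPM, and Ncr1 was not called (1.16 ± 0.54, adjusted p = 0.207).

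Gzma, the granzyme of NK and cytotoxic T cells, had the largest difference of the members at 6-dpf. WT libraries held 4.25, 1.76, 2.80, 1.87 and 3.91 CPM and P-Apex1KO libraries 7.21, 5.85 and 10.9 CPM. The groups were apart, by 1.71 ± 0.32 on the log2 scale (3.28-fold, adjusted p = 0.0104), and Gzma was called in 15 of 17 other settings, more than any other member at this time. At 10-dpf P-Apex1KO replicate 2, at 1.52 CPM, fell within the WT range of 1.42 to 2.18 CPM, and the difference was 0.64 ± 0.34 (adjusted p = 0.287). At 14-dpf it was 1.16 ± 0.50 (adjusted p = 0.177).

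Nkg7, the granule membrane protein, followed another course. At 6-dpf it overlapped between genotypes, with 9.34 to 13.2 CPM in WT and 17.8, 10.7 and 15.8 CPM in P-Apex1KO callus (0.42 ± 0.17, adjusted p = 0.144). At 10-dpf WT libraries held 4.53, 4.47, 6.80 and 6.41 CPM and P-Apex1KO libraries 13.0, 14.4 and 10.9 CPM. The lowest P-Apex1KO library was well above the highest WT library, and the difference was 1.18 ± 0.17 (2.27-fold, adjusted p = 0.0132). At 14-dpf the groups were again apart, with 4.28, 4.87, 5.69 and 5.16 CPM in WT and 8.66, 16.4 and 12.1 CPM in P-Apex1KO libraries (1.56 ± 0.38, adjusted p = 0.0360). Nkg7 was called in 13 of 16 other settings at 10-dpf and in 13 of 17 at 14-dpf. The granulocyte precursor list described below had median differences of 0.095, 0.97 and 1.13 at 6-, 10- and 14-dpf. The list of NK cell receptors and regulators had medians of 1.13, 0.85 and 0.85. Which cells carried Nkg7 in the callus was not tested.

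Between 3- and 6-dpf no member changed in WT callus (0 of 10 called by edgeR, 0 with an unadjusted p under 0.05, 0 by DESeq2; 15.4% of 20468 genes called higher). In P-Apex1KO callus 3 members rose, Cd4 by 1.03 ± 0.28, Ncr1 by 1.03 ± 0.33 and Gzma by 1.30 ± 0.37 (adjusted p = 0.0237, 0.0487 and 0.0276), beside 7.1% of genes. That the genotype difference was greater at 6- than at 3-dpf was not established for any member: 0 of 10 interaction terms were called by edgeR or DESeq2, beside 0.318% of genes, although 6 had an unadjusted p under 0.05. The largest were 1.44 ± 0.49 for Gzma (adjusted p = 0.205) and 1.43 ± 0.45 for Ncr1 (adjusted p = 0.159). Without P-Apex1KO replicate 3 at 6-dpf no member was called to rise, and 1 was without P-Apex1KO replicate 2 at 6-dpf or replicate 1, 3 or 4 at 3-dpf. Time and the tissue taken, as the paper describes it, cannot be told apart between 3- and 6-dpf.

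Between 10- and 14-dpf no member was called in WT (edgeR 0, DESeq2 1, with 2 at an unadjusted p under 0.05; 6.19% of 19705 genes called higher) or in P-Apex1KO callus (edgeR 0, DESeq2 0, with 4 under 0.05; 0.0304% called higher). Cd8a came nearest in WT, at 1.22 ± 0.37 (adjusted p = 0.0505). None of the 10 interaction terms was called by either tool or had an unadjusted p under 0.05, beside 0.0406% of genes called higher. Libraries of 6- and 10-dpf were not compared, since the form of the sample names changes between them.

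The 2 ratios of counts within a library asked whether the T cell transcripts differed relative to leukocytes as a whole and whether the coreceptors shifted against each other. For Cd3e over Ptprc, the gene of the pan-leukocyte antigen CD45, the log2 ratio at 6-dpf was -6.82 ± 0.36 in WT (SD, n = 5) and -6.34 ± 0.20 in P-Apex1KO callus (n = 3), a difference of 0.48 (exact two-sided permutation test, p = 0.107). At 14-dpf the difference was 0.59 (exact p = 0.171), and at 3- and 10-dpf it was 0.071 and 0.025 (exact p = 0.857 and 0.914). The log2 ratio of Cd8a to Cd4 differed by 0.12, 0.53, 0.19 and 0.41 at 3-, 6-, 10- and 14-dpf, with exact p = 0.743, 0.393, 0.686 and 0.457. None of the 8 exact tests reached 0.05, which the 4 tests at 10- and 14-dpf could not do in any case, their smallest possible p being 0.0571. Adjusted over the 8, none was below 0.686. Ptprc itself was called higher at 10-dpf (0.70 ± 0.16, adjusted p = 0.0416) and had differences of 0.56 ± 0.18 at 6-dpf and 0.96 ± 0.27 at 14-dpf that were not called.

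**Figure D3:**
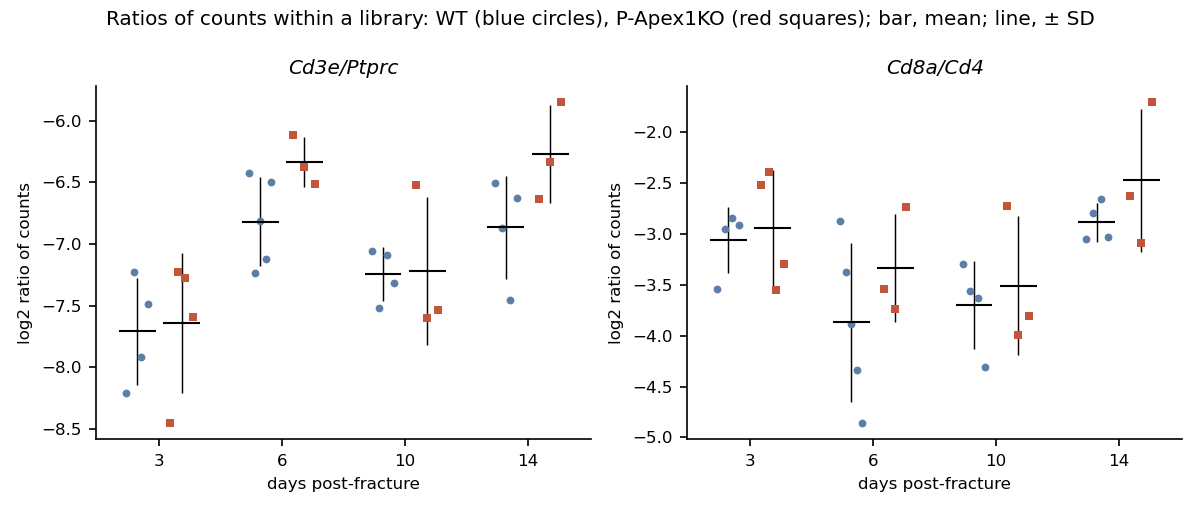
Log2 ratio of counts of Cd3e to Ptprc (left) and of Cd8a to Cd4 (right) in every library, by days post-fracture. Blue circles are WT, red squares P-Apex1KO, bars the mean and lines ± 1 SD. WT and P-Apex1KO libraries overlap in both ratios at every time point.

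Other genes of the T and NK cell programmes were taken from 7 lists, and at 3-dpf edgeR called no gene of them, with at most 1 gene per list at an unadjusted p under 0.05. At 6-dpf every call in these lists was higher in P-Apex1KO callus, beside 5.31% of all genes called higher. Among the NK cell receptors and regulators 12 of 18 were higher, with Il2rb, the shared beta chain of the IL-2 and IL-15 receptors (1.26 ± 0.19, adjusted p = 0.0041), and Klrk1, which encodes NKG2D (1.84 ± 0.29, adjusted p = 0.0054), having the smallest p. The median of that list was 1.13. Of the receptor signalling genes 9 of 22 were higher (median 1.00), led by Sh2d2a, a T cell adaptor (1.66 ± 0.25), and Cd2, an adhesion receptor (1.65 ± 0.31). Of the receptor chains 2 of 8 were higher (median 0.92), the beta constant regions Trbc2 (1.32 ± 0.30) and Trbc1 (1.82 ± 0.44), which are near-identical copies whose reads can be split between them.

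The identity and homing list had 7 of 16 genes higher at 6-dpf (median 1.06), among them the lymph-node homing receptor Ccr7 (1.69 ± 0.21, adjusted p = 0.0022). Of the regulatory and checkpoint genes 5 of 12 were higher (median 0.92), led by the costimulator Icos (1.90 ± 0.33) and the checkpoint receptor Havcr2 (0.82 ± 0.16). Of the cytotoxic effectors 2 of 11 were higher (median 0.45), the perforin gene Prf1 (1.65 ± 0.30) and the chemokine Ccl5 (1.55 ± 0.30). Of the 6 cytokine genes tested, Il12b (2.54 ± 0.53, and 3.31 without P-Apex1KO replicate 1) and Il7 (0.95 ± 0.23) were higher, products of antigen-presenting and stromal cells rather than of lymphocytes. Over all genes the median was 0.013, and 5.31% were called higher.

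At 10-dpf the lists had 3 cytotoxic effectors of 10, 2 signalling genes of 22, 1 identity and homing gene of 15 and 1 NK gene of 18 called higher, beside 3.01% of all genes. No receptor chain (5 tested, 4 at an unadjusted p under 0.05), regulatory gene (11 tested, 3) or cytokine gene (6 tested, 3) was called by edgeR. The chemokine receptor gene Cxcr3 (1.55 ± 0.31), the granzymes Gzmb (1.39 ± 0.24) and Gzmc (1.94 ± 0.43), and Fcer1g, a signalling chain that myeloid cells share (0.65 ± 0.11), were called higher. List medians ran from 0.39 for the cytokines to 0.85 for the NK genes. Fyn, a kinase related to Lck (-0.70 ± 0.13, adjusted p = 0.0218), and Tcf7, the transcription factor TCF1 (-1.05 ± 0.14, adjusted p = 0.0099), were called lower, as were 3.44% of all genes.

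The pattern at 14-dpf was again mostly upward, at a time when 4.28% of all genes were called higher. The receptor signalling list had 5 genes higher and 1 lower of 22 (median 1.30), and the identity and homing list 2 higher and 2 lower of 15 (median 1.22). Of the other lists 4 of 18 NK genes, 3 of 12 regulatory genes and 2 of 12 cytotoxic effectors were higher, and edgeR called no receptor chain (8 tested, 3 at an unadjusted p under 0.05) and no cytokine gene (6 tested, 3). Skap1 (1.92 ± 0.37, adjusted p = 0.0159), the IL-7 receptor gene Il7r (1.88 ± 0.32, adjusted p = 0.0107) and Icos (1.82 ± 0.41, adjusted p = 0.0295; 2.44 without the WT female) were called higher. So were the NK genes Il18rap (1.26 ± 0.21) and Cd226 (1.36 ± 0.24) and the granule proteoglycan gene Srgn (1.10 ± 0.22). Pdcd1, which encodes PD-1 (4.39 ± 0.82), and Gzmc (4.51 ± 1.07) had the largest fitted differences. Their WT libraries, however, held only 1 to 7 and 1 to 11 counts. Pdcd1, like Foxp3, passed the filter on low counts through the P-Apex1KO libraries only. Its place among the tested genes was thus not independent of genotype. Without the WT female, in fits where genotype and sex cannot be told apart, the differences were 2.38 and 1.63. Fyn (-1.04 ± 0.10) and Tcf7 (-1.86 ± 0.15, adjusted p = 0.00083) were again lower, beside 7.04% of all genes.

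Fyn and Tcf7 thus differed in the opposite direction from the members. So did S1pr1, the receptor by which lymphocytes leave lymphoid organs and which endothelium also carries, at 14-dpf (-0.49 ± 0.12, adjusted p = 0.0439, named after its values were seen). The level of Tcf7 at 14-dpf was 57.9 ± 3.97 CPM in WT callus (SD, n = 4), where Cd3e stood at 2.03 ± 0.52 CPM, and 15.4 ± 1.51 CPM in P-Apex1KO callus (n = 3). Both genes are known outside the lymphoid lineage as well, Fyn as a broadly expressed kinase and Tcf7 as a nuclear partner of Wnt signalling.

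**Figure D4:**
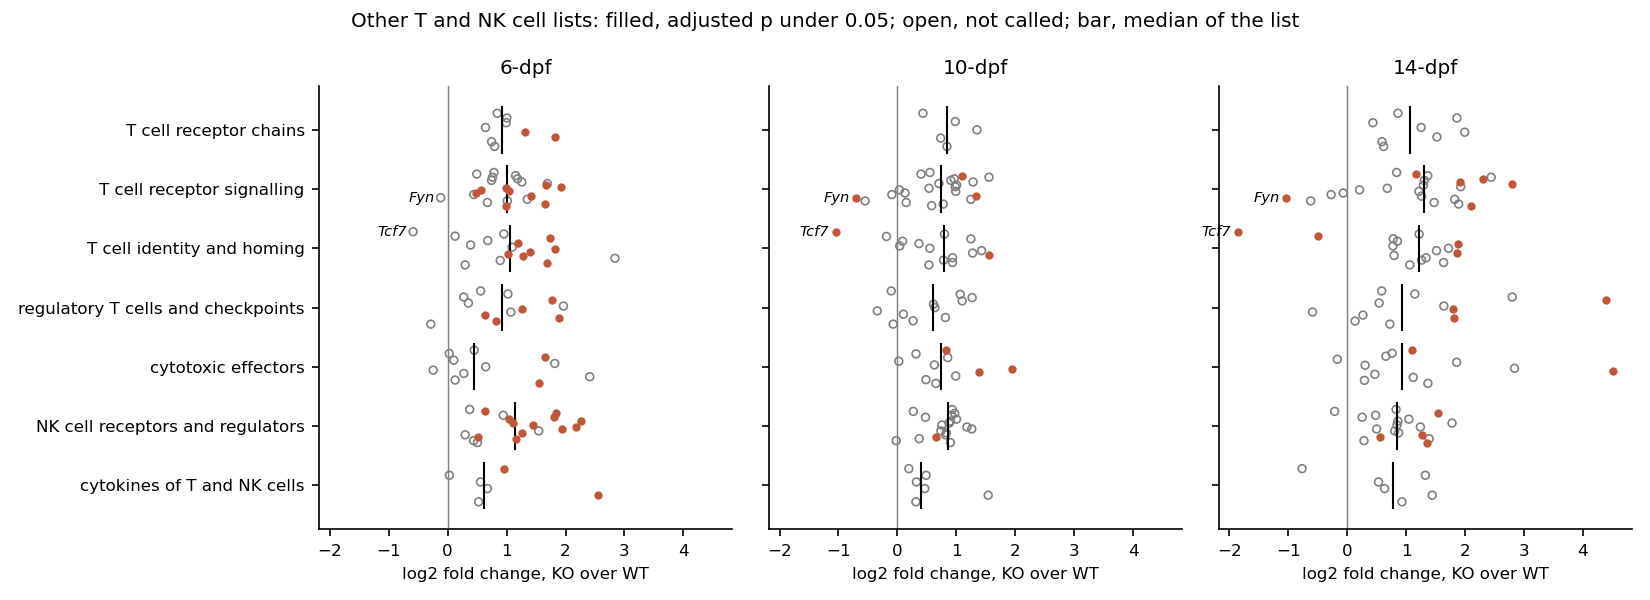
Log2 fold change of P-Apex1KO over WT (x axis) for the tested genes of 7 T and NK cell lists (y axis) at 6-, 10- and 14-dpf. Filled points have an adjusted p under 0.05, open points do not, and bars are list medians. Most points lie to the right of 0, while Fyn and Tcf7 lie to the left and are filled at 10- and 14-dpf, as is S1pr1 (-0.49) at 14-dpf.

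Across the 30 libraries, with the mean of each group taken out, the genes most like the mean of the 3 CD3 chains included Tnfrsf18, which encodes the receptor GITR (Pearson r = 0.856), Il2rb (0.816), Pglyrp2 (0.792) and Ms4a4b (0.790), ranked among 15922 genes whose mean level reached 1 CPM. Among the members, Lck had an r of 0.807, Gzma 0.606, Ncr1 0.557, Nkg7 0.518, Cd8a 0.515 and Cd4 0.454, and Foxp3 was below the limit on level. Cd79a, a B cell gene, had 0.576 and Ptprc 0.507. These correlations are descriptions over libraries that share depth and tissue composition.

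Markers of other cell types moved at the same times. At 3-dpf edgeR called none of them, although all 10 skeletal muscle genes had an unadjusted p under 0.05. At 6-dpf 5.31% of all genes were called higher. The macrophage list had 7 of 10 genes higher (summed level 745 to 961 CPM in WT and 1314 to 1523 CPM in P-Apex1KO libraries), with Adgre1, the F4/80 gene, up by 0.82 ± 0.09. Of the 14 B cell genes 4 were higher (186 to 347 and 244 to 478 CPM), and Cd79a had a difference of 1.48 ± 0.41 with an adjusted p of 0.0502. Of the dendritic cell genes 4 of 12 were higher (132 to 181 and 213 to 264 CPM), of the skeletal muscle genes 9 of 10 (3460 to 6416 and 8230 to 19076 CPM), and of the cartilage and bone genes 11 of 12 were lower (69518 to 93096 and 19297 to 29922 CPM). Granulocyte and erythroid precursors had 0 of 10 each called in edgeR, with 0 and 2 at an unadjusted p under 0.05.

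At 10-dpf 6 of 10 macrophage, 3 of 12 dendritic and 1 of 10 granulocyte precursor genes were higher, beside 3.01% of all genes. Of the cartilage and bone genes 4 of 12 were lower, beside 3.44%. No B cell, erythroid or muscle gene was called by edgeR (6 of 14, 0 of 10 and 10 of 10 had an unadjusted p under 0.05). At 14-dpf 4.28% of all genes were called higher and 7.04% lower. The granulocyte precursor list had 6 of 10 genes higher (930 to 1393 CPM in WT and 1987 to 2509 CPM in P-Apex1KO libraries). The erythroid list had 8 of 10 higher (1053 to 1187 and 2407 to 2807 CPM). The macrophage list had 6 of 10 higher and 2 lower, and its summed levels overlapped (1077 to 1260 and 1074 to 1229 CPM). Of the dendritic cell genes 1 of 12 was higher, and of the cartilage and bone genes 6 were higher and 4 lower. No muscle gene was called by edgeR (0 at an unadjusted p under 0.05) and no B cell gene (11 of 14 under 0.05). The summed B cell level was 333 to 414 CPM in WT and 506 to 1297 CPM in P-Apex1KO callus, with P-Apex1KO replicate 2 at the top as for Cd4, Lck, the CD3 chains, Foxp3, Ncr1, Nkg7 and Gzma. Without that library and without sex, a fit chosen after seeing the data, 7 members were called at 14-dpf. The share of all genes called in that fit is not given, and sex was unbalanced between the genotypes in it. No gene of the B cell, dendritic, macrophage, granulocyte, erythroid or muscle lists was at 0 in any library. The part of these cell types in the results on the members was not tested, and in bulk callus more lymphocytes and more RNA per lymphocyte cannot be told apart.

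**Figure D5:**
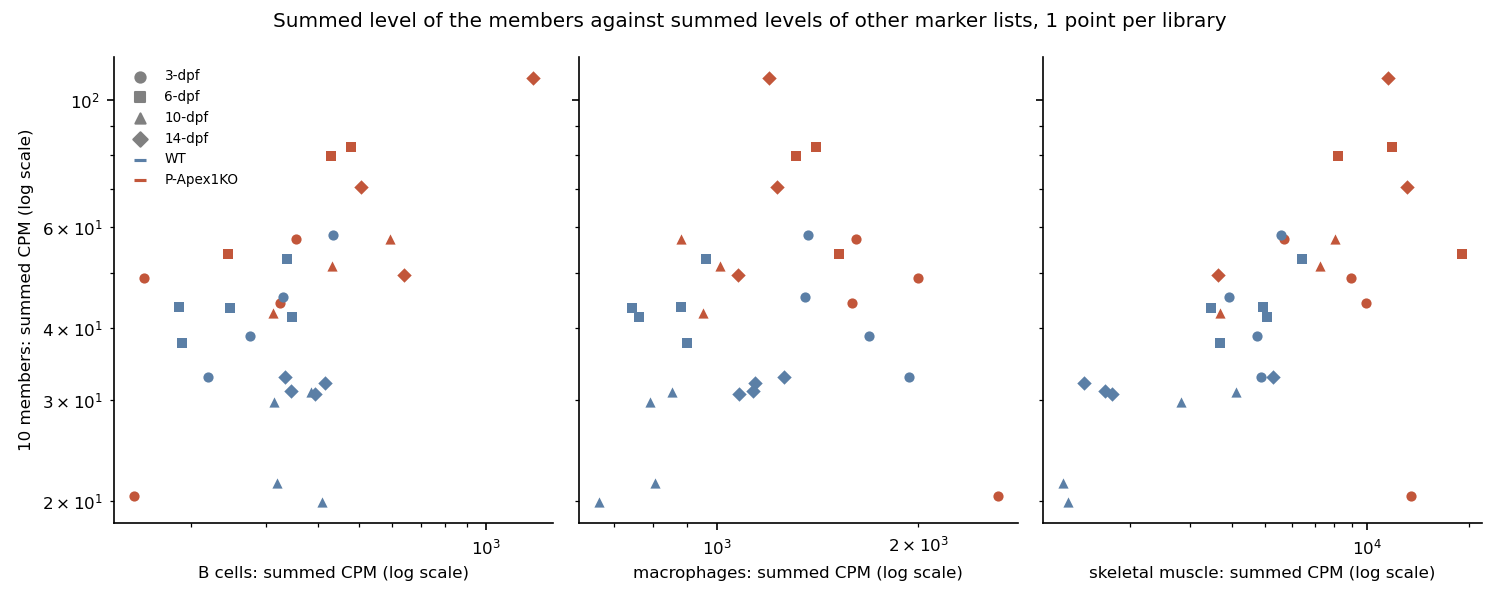
Summed CPM of the 10 members (y axis, log scale) against the summed CPM of the B cell, macrophage and skeletal muscle lists (x axes, log scale), 1 point per library. Colour gives the genotype and shape the time point. P-Apex1KO replicate 2 at 14-dpf is highest for the members (109 CPM) and the B cells (1297 CPM), and P-Apex1KO replicate 1 at 3-dpf is among the lowest for both.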

How the data were processed

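RNA of 30 mouse fracture calluses was sequenced by the authors as stranded, paired-end total RNA depleted of ribosomal and beta globin RNA. Per the labels and the methods of the study, bcl2fastq 2.20 made the reads, STAR 2.7.0d aligned them to mm39, and featureCounts counted uniquely mapped reads of the reverse strand on Ensembl 104 genes. The deposited values are raw read counts per gene, without normalization. Of 55416 gene identifiers, 54749 were found in GENCODE M39, which gave positions on GRCm39. Groups came from the sample labels.

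Here, counts were filtered with edgeR's filterByExpr, scaled by TMM and tested by edgeR 4.0.16 (R 4.3.3) quasi-likelihood fits with sex as a covariate, separately for each time point, with Benjamini-Hochberg adjustment over all genes tested and a threshold of 0.05. The change between times and its difference between genotypes were fitted over both times together, within 3- and 6-dpf and within 10- and 14-dpf. Alternatives were DESeq2 1.42.0 (with and without sex), other scalings and filters, no sex term, 1 model of all libraries, a replicate block and each library left out. Ratios used counts + 0.5 and exact permutation tests (scipy 1.17.1). The scripts were tested on simulated data. The members, gene lists and tests were chosen with earlier results of these data known. Besides the members, the named genes were, from each of 14 lists and at each time, the called genes with the 2 smallest p or else the gene with the smallest p, plus Apex1, Ptprc, 1 defining gene per other cell type and the 5 genes most like the CD3 chains; some genes that these rules name are not reported here. Depth was 18334389 to 43111491 counts per library, and at 1 to 35 counts Foxp3 has the least precision. Replicates are separate mice as far as the labels say, and intervals from counts cover counting error only.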

Additional observations from a re-analysis of the deposited data

Results flagged for a closer look

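Among the members and the 2 ratios, 3 of 60 groups of 4 or 5 libraries had 1 library far from the others, about the 1 in 20 that chance gives. Cd3d in WT callus at 6-dpf was 0.715 CPM in replicate 2, against 1.08 to 1.16 CPM in the other 4 libraries. That library, 1 of the 2 WT males, is the one without which no member was called at 6-dpf. Gzma in P-Apex1KO callus at 3-dpf was 5.08 CPM in replicate 2, against 2.44 to 2.89 CPM in the other libraries. The log2 ratio of Cd8a to Cd4 in WT callus at 3-dpf was -3.54 in replicate 1, against -2.95 to -2.84.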

How the results depend on the processing

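Of 488 refits of member differences at 6-, 10- and 14-dpf, 487 were above 0, the exception being Cd3g at 10-dpf (-0.0043 without P-Apex1KO replicate 1). The number of members called was less stable, and the share of all genes called in each refit is not given. The blocked fit, with the replicate number in place of sex, called 1 at 6-dpf and 5 at 14-dpf. Same-numbered libraries deviated with r between -0.213 and 0.340 and not every pair exceeded 0.1, so the numbers were not taken to pair mice. With all 30 libraries in 1 model the counts were 0 at 10-dpf and 8 at 14-dpf. At 14-dpf 1 was called with at least 10 counts in every library (Cd3d, Cd3g and Foxp3 then fall below the minimum), 10 without sex, 10 by DESeq2 without sex and 7 without P-Apex1KO replicate 2 and sex, the last 2 chosen after seeing the data. The rise in P-Apex1KO callus from 3- to 6-dpf held 1 member without a filter and 5 by DESeq2. From 10- to 14-dpf WT had 1 member without a filter, by DESeq2 and by DESeq2 without sex, and P-Apex1KO callus 1 without sex and 2 by DESeq2 without sex. With 1 library left out, counts ran from 0 to 8 at 6-dpf, 0 to 4 at 10-dpf, 0 to 8 at 14-dpf, 0 to 3 for P-Apex1KO callus from 3- to 6-dpf and 0 to 1 in either genotype from 10- to 14-dpf, and were 0 in all fits at 3-dpf, in WT from 3- to 6-dpf and for both interactions. Where fewer libraries or genes were not the setting itself, the cause was not tested.

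The ratio of Cd3e to Ptprc ran from -0.094 to 0.343 at 3-dpf, 0.372 to 0.581 at 6-dpf, -0.324 to 0.215 at 10-dpf and 0.382 to 0.776 at 14-dpf with 1 library left out, and that of Cd8a to Cd4 from -0.062 to 0.325, 0.228 to 0.779, -0.201 to 0.429 and 0.028 to 0.718. At 3-dpf, where no member was called in any fit, the sign of some differences turned. Lck was -0.044 with all libraries in 1 model, -0.029 by library size alone, -0.15 without sex, -0.14 by DESeq2 without sex and -0.14 with the block. Ncr1 was -0.00014 by library size alone, -0.019 without sex, -0.015 by DESeq2 without sex and -0.031 with the block, and Nkg7 was -0.050 with the block. With 1 library left out at 3-dpf, Cd3e ran from -0.12 to 0.42, Cd3g from -0.29 to 0.67, Cd8a from -0.40 to 0.070, Lck from -0.16 to 0.24, Ncr1 from -0.22 to 0.29 and Gzma from -0.17 to 0.45, and Cd3g at 10-dpf ran from -0.0043 to 1.41. Counts of 1 to 35 limit Foxp3, and 3 against 4 libraries limit every test at 10- and 14-dpf.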

Other observations

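In the dendritic cell and B cell lists, the called genes with the smallest p were these. At 6-dpf Cox6a2, the striated muscle form of a cytochrome c oxidase subunit that plasmacytoid dendritic cells also express, was higher in P-Apex1KO callus by 1.43 ± 0.26 on the log2 scale (adjusted p = 0.0108, edgeR), beside a median of 1.46 over the 10 skeletal muscle genes, and Bst2 by 0.73 ± 0.16 (adjusted p = 0.0190). Rag1, the recombinase of developing lymphocytes, was higher by 1.48 ± 0.37 (adjusted p = 0.0369; 2.07 without P-Apex1KO replicate 1), and Cd79b, of the B cell receptor, by 1.39 ± 0.38 (adjusted p = 0.0459). Of the genes that define dendritic cell types, Xcr1, the receptor of cross-presenting cells, had a difference of 1.92 ± 0.59 and Siglech of 0.86 ± 0.28, and neither was called (adjusted p = 0.0667 and 0.0789).

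At 10-dpf the dendritic cell genes Irf8 (0.80 ± 0.16, adjusted p = 0.0329) and Flt3 (0.74 ± 0.17, adjusted p = 0.0394) were higher, and at 14-dpf Ccr9, a homing receptor of plasmacytoid dendritic cells and of gut T cells, was higher by 2.02 ± 0.47 (adjusted p = 0.0321). Within the macrophage list at 14-dpf, Csf1r (-1.12 ± 0.11) and Cd68 (-1.38 ± 0.15) were lower while Adgre1 was higher by 1.16 ± 0.18.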
